A study of Homo sapiens with 6 samples.

Results

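Long alpha satellite arrays are stretches of at least 2000 bp that RepeatMasker annotates as ALR/Alpha in the hg19 build of the human genome. They were chosen by family name and length alone, without use of any measured level. The rule took 804 of the 1301 alpha satellite loci in the deposited table, which holds 9566 satellite loci of 24 families. The 804 arrays ran from 2007 to 160602 bp with a median of 5750 bp, covered 6.98 Mb and held 93.8% of all alpha satellite bases in the table. Of these arrays, 794 lay on 23 assembled chromosomes and 10 on 4 contigs, with 415 on the plus strand and 389 on the minus strand.

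The study followed SW620, a human colon cancer cell line, through a xenograft, and its title concerns expansion of pericentromeric satellite repeats by way of DNA copied from RNA. Cells were taken from 2D culture in RPMI1640 with 10% FBS before grafting, from a subcutaneous tumour in the immunodeficient Nu/Nu mouse, and from 2D culture again after the graft. RNA and DNA were each sequenced as single molecules on the Helicos platform at all 3 stages, which gave 6 libraries with 1 library per group. All groups therefore shared the same cell line, and a xenograft also holds host cells, for which the sources used here give no handling of reads.

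Alpha satellite is the main repeat of human centromeres. Its AT-rich monomers stand head to tail, and in the core of a centromere blocks of monomers repeat as higher-order units, on which the centromeric histone CENP-A and the kinetochore assemble. Older and more diverged monomers flank the core. The hg19 build leaves most of each core as an unsequenced gap, so that arrays at the edge of such a gap can receive reads from copies the build does not hold. Transcripts of these arrays have been described as part of normal centromere function, and pericentromeric satellite RNA is known to be abundant in many epithelial tumours.

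Levels are in RPM, the reads at a locus scaled to a library total of 1000000 reads, and the reads assigned to an array are its hits. The RNA libraries held 157326, 1077925 and 240046 reads before, during and after xenograft growth, and the DNA libraries 4355426, 3231173 and 3080853 reads. A single hit was worth 6.36 RPM in RNA of the culture before, 0.928 RPM in xenograft RNA and 4.17 RPM in RNA of the culture after, against 0.230 to 0.325 RPM in the DNA libraries. An array with 0 hits could therefore hold up to 19.1, 2.78 and 12.5 RPM in the 3 RNA libraries, with 3 reads as the limit. With no replicate in any group no difference was tested across samples, and every interval is an exact 95% interval that covers counting error only. The table holds satellite loci and no genes, so markers of the cell line or of mouse tissue could not be read, and fewer cells and less RNA per cell cannot be told apart.

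Long alpha satellite arrays were far more abundant in xenograft RNA than in RNA of either culture. Their summed RNA level was 2174 RPM before grafting (342 hits, interval 1950 to 2417), 51829 RPM in the xenograft (55868 hits, 51400 to 52261) and 5595 RPM in the culture after (1343 hits, 5300 to 5902). The xenograft thus stood above both cultures with no overlap of counting intervals, and the culture after stood above the culture before. The RNA level was 23.8-fold higher in the xenograft than before it (21.4 to 26.6), 9.26-fold lower in the culture after than in the xenograft (8.78 to 9.79), and 2.57-fold higher in the culture after than before (2.28 to 2.91). Scaling over all satellite loci, the long arrays included, moved these values: the culture after was then 14.8-fold (TMM) or 12.4-fold (size factors) below the xenograft, and its ratio to the culture before came to 1.43 or 1.35.

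DNA of the same arrays took another course. The summed DNA level was 4744 RPM before (20664 hits, 4680 to 4810), 65519 RPM in the xenograft (211703 hits, 65240 to 65799) and 71346 RPM in the culture after (219805 hits, 71048 to 71644). DNA was therefore high in both later stages, while RNA was high in the xenograft alone. The DNA ratio of xenograft to culture before was 13.8 (13.6 to 14.01), that of the culture after to the xenograft 1.09 (1.08 to 1.10), and that of the culture after to the culture before 15.0 (14.8 to 15.3). On scales set by the satellite loci themselves the first of these came to 1.68 (TMM) or 1.55 (size factors) and the last to 1.92 or 1.77, so the size of the DNA difference depends on what the libraries are scaled to.

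Within the satellite reads, the arrays also held a larger share in the xenograft than before, kept in the culture after in DNA but not in RNA. They held 43.1% of satellite hits in RNA before, 71.1% in xenograft RNA and 42.9% in RNA after, and 55.6%, 66.3% and 68.7% in the DNA libraries in the same order. Alpha satellite loci under 2000 bp, 497 in number, differed less between stages: the xenograft stood above the culture before by 3.92-fold in RNA (2.74 to 5.81), against 23.8-fold for the long arrays, and by 5.81-fold in DNA (5.37 to 6.29), against 13.8-fold. The 8265 loci of other families lay between, at 7.60-fold in RNA (6.90 to 8.39) and 8.93-fold in DNA. The intervals of the long and the short loci did not overlap in either comparison. At the length limit itself, the nearest loci below were 1987, 1987 and 1992 bp long (starting at 90372217 on chromosome 3, 62016655 on X and 50524594 on 11), and the nearest above were 2007, 2012 and 2018 bp long (starting at 24468724 on chromosome 19, 62014631 on X and 62186882 on 6).

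In RPM, the ratio of RNA to DNA changed with the stage, and the size of this change depends on the scale. With TMM, xenograft long arrays stood above the culture before by 21.1-fold in RNA and 1.68-fold in DNA, against 23.8-fold and 13.8-fold in RPM. In the culture after they stood above it by 1.43-fold and 1.92-fold, against 2.57-fold and 15.0-fold in RPM. For the long arrays the ratio of summed RNA RPM to summed DNA RPM was 0.458 before (0.411 to 0.510), 0.791 in the xenograft (0.784 to 0.798) and 0.0784 in the culture after (0.0743 to 0.0827). Short alpha satellite loci stood at 1.11, 0.750 and 0.299, and other families at 0.738, 0.629 and 0.226. Long arrays were therefore below both other classes in the culture after, while in the xenograft they stood above other families and overlapped the interval of the short loci (0.694 to 0.809). Among other satellite families of the xenograft, HSATII stood at 0.529 and BSR/Beta, a beta satellite, at 0.706, both below the long arrays. GSATII at 1.60, TAR1 at 1.85 and GSATX at 6.70 stood above them, the last on 110 DNA hits. In the culture after, single families also lay on both sides of the long arrays. HSATII at 0.000317, (GAATG)n at 0.0111 and (CATTC)n at 0.0176 stood below them, and BSR/Beta at 0.371 and GSATII at 3.65 above.

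**Figure D1:**
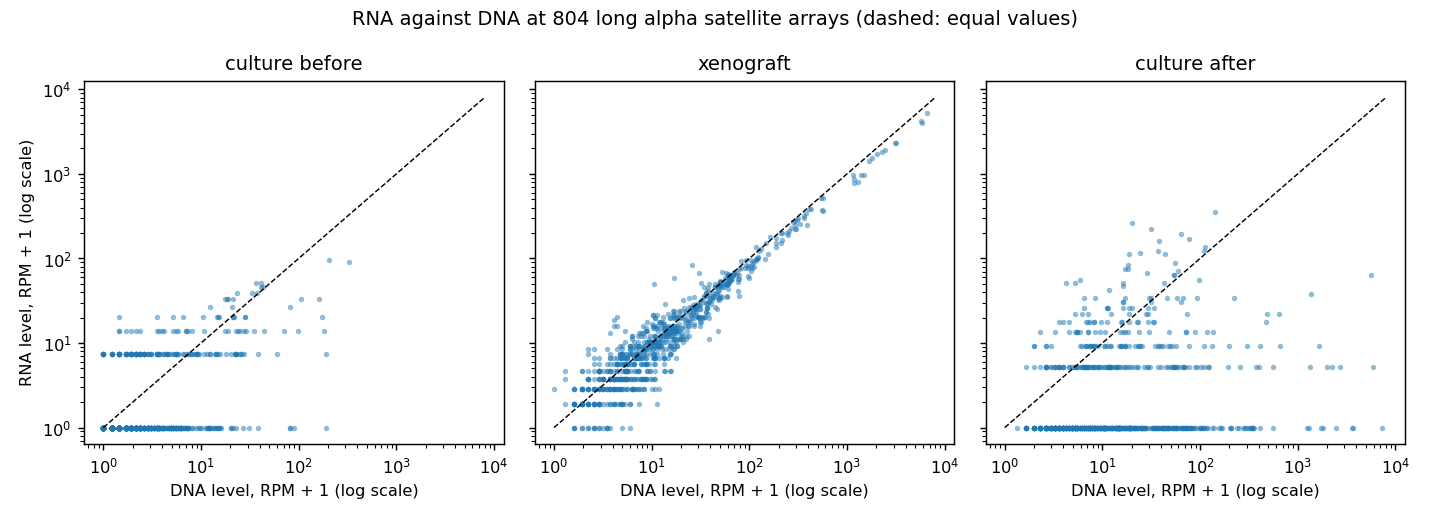
RNA level against DNA level of each of the 804 long arrays at the 3 stages, with RPM plus 1 on both log axes, 1 point per array and a dashed line of equal values. In the xenograft the points follow the line closely (Pearson correlation 0.97 on log2 of RPM plus 5), while in the culture after many arrays with high DNA lie at or near 0 RPM of RNA.

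Array by array, xenograft RNA followed xenograft DNA. Over the 804 arrays the 2 levels had a Pearson correlation of 0.97 on log2 of RPM plus 5 and a Spearman correlation of 0.83 on RPM per kb, which are descriptions without a test, since the arrays share libraries, a family sequence and the effect of length. Among the 233 arrays at 20 RPM or more in xenograft DNA the ratio of RNA to DNA had a median of 0.838, with the middle 50% between 0.716 and 0.946 and a full range of 0.273 to 3.33. Summed by length, the ratio was 0.864 in arrays of 2 to 5 kb and 0.712 in the 7 arrays over 50 kb. Both DNA libraries taken from the graft on also ranked the arrays alike, with correlations of 0.99 and 0.92. Whether DNA entered the RNA libraries was not tested.

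Only 3 of those 233 arrays had more than 1.5 RNA RPM per DNA RPM in the xenograft. They were chr12:38292356-38301939 at 3.33, chr16:32579914-32588304 at 2.25 and chr7:57814928-57820304 at 1.64. The lowest ratios were 0.273 at the array starting at 47307486 on chromosome 8, 0.276 at the one starting at 62014631 on X, and 0.452 at the one starting at 38390357 on chromosome 12. The array on X is also one of those just above the length limit.

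The xenograft RNA was carried by few arrays. The 10 leading arrays held 51.2% of xenograft RNA hits on long arrays, against 23.98% for the leading 10 in RNA before and 33.2% in RNA after, and in DNA the leading 10 held 36.2%, 53.1% and 52.3%. The median array stood at 0 RPM in both culture RNA libraries, at 8.35 RPM in xenograft RNA, and at 1.15, 9.28 and 9.74 RPM in DNA. Hits were seen at 183, 785 and 275 of the 804 arrays in RNA and at 740, 803 and 804 in DNA, counts that depend on the depth of each library as well as on the level.

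The array with the most xenograft RNA lay on the unplaced contig Un_gl000226, at positions 2 to 15004 (15003 bp). Its RNA level was 89.0 RPM before, 5295 RPM in the xenograft and 0 RPM in the culture after, and its DNA level 329, 6527 and 7250 RPM. RNA was thus present in both earlier stages and without a hit in the last, where DNA was highest. The RNA ratio of xenograft to culture before was 59.5 (35.4 to 109), and RNA in the culture after was at least 424-fold lower than in the xenograft. No chromosome is assigned to this contig, so its centromere of origin is not known here.

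A pair of arrays on the X chromosome followed. The array chrX:58544096-58582011 had RNA levels of 95.3, 4266 and 62.5 RPM and DNA levels of 204, 5744 and 5675 RPM at the 3 stages. From the culture before to the xenograft its RNA differed 44.7-fold upward (27.1 to 80.0), and it was 68.3-fold lower afterwards (41.3 to 122). The array chrX:61682015-61736573, on the other side of the centromere gap, had RNA levels of 12.7, 3984 and 4.17 RPM and DNA levels of 182, 5916 and 5834 RPM. Its DNA ratio of xenograft to culture before, 32.6, was above the 28.2 of its partner and the 13.8 of all long arrays together. The 2 arrays were near each other in both DNA libraries of the later stages, while the first held more RNA in either culture.

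On chromosome 8 the arrays on the 2 sides of the gap were likewise close to each other. The array chr8:46838891-46863921 had 6.36, 2324 and 0 RPM of RNA and 189, 3121 and 3609 RPM of DNA. The array chr8:43816164-43838878 had 0, 2291 and 0 RPM of RNA, so that its RNA was at least 120-fold higher in the xenograft than before and at least 183-fold lower after. Its DNA was 190, 3177 and 3661 RPM. Neither array had a hit in RNA of the culture after, although both had more DNA there than in the xenograft.

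The other leaders shared this form. The array chr1:121480151-121485429 had 19.1, 1923 and 4.17 RPM of RNA and 172, 2445 and 2697 RPM of DNA, and per length it was the highest of all 804 in xenograft RNA at 364 RPM per kb, next to 353 RPM per kb for the unplaced contig. The array chr19:27731785-27741731 came next per length at 171 RPM per kb, with RNA levels of 31.8, 1700 and 4.17 RPM. The array chr7:61967160-61985590 had 12.7, 1797 and 0 RPM of RNA. On chromosome 2 the arrays chr2:92274435-92312482, with 31.8, 1527 and 4.17 RPM, and chr2:92315720-92326171, with 0, 1429 and 0 RPM, completed the leading 10. None of the 5 arrays of these 4 chromosomes had more than a single hit in RNA of the culture after, although DNA of each was at least as high there as in the xenograft.

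**Figure D2:**
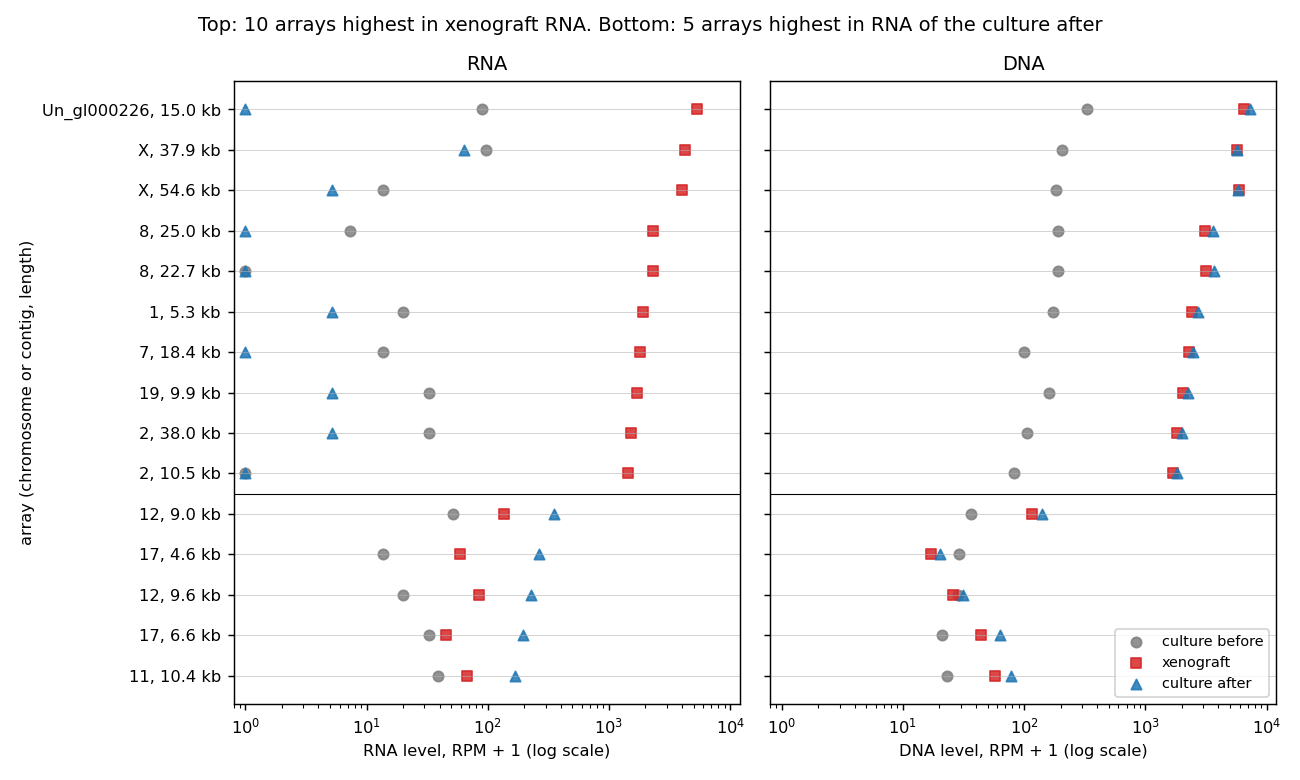
RNA (left) and DNA (right) levels as RPM plus 1 on a log axis, for the 10 arrays highest in xenograft RNA (top) and the 5 highest in RNA of the culture after (bottom), with 1 symbol per library. The 10 upper arrays are far lower in RNA of both cultures than in xenograft RNA but as high in DNA of the culture after as in xenograft DNA, and the 5 lower arrays stay at or under 140 RPM in DNA at every stage.

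The longest array was not among the leaders. At 160602 bp, chr7:61087754-61248355 held 0, 153 and 8.33 RPM of RNA and 7.12, 208 and 196 RPM of DNA. The next in length, on the contig 9_gl000199_random at 65198 to 169872, held 0, 979 and 8.33 RPM of RNA and 87.7, 1405 and 1655 RPM of DNA. Per kb the xenograft RNA of the longest was 0.953 RPM and that of the next 9.35 RPM, so length alone did not order the arrays. The array chr16:35204197-35259004 had 25.4, 957 and 37.5 RPM of RNA and 80.1, 1164 and 1357 RPM of DNA, and was the leader of its chromosome. The array 1775 to 57251 of the contig 9_gl000198_random, of similar length, held 0, 5.57 and 0 RPM of RNA and 0.459, 6.50 and 8.44 RPM of DNA, and per kb it was among the lowest of the long arrays in both xenograft libraries.

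The leading array of most other chromosomes had the same order of stages. On chromosome 5, chr5:49405642-49431170 held 0, 520 and 0 RPM of RNA and 14.7, 539 and 564 RPM of DNA. On chromosome 18, chr18:18510902-18520342 held 6.36, 878 and 4.17 RPM of RNA and 59.7, 1170 and 1329 RPM of DNA. On chromosome 10, chr10:42527022-42546685 held 0, 779 and 0 RPM of RNA and 81.5, 1181 and 1233 RPM of DNA. These 3 leaders were at or within a single hit of 0 in both culture RNA libraries. Chromosome 6 was led by a short array of 4241 bp, chr6:58775921-58780161, with 6.36, 364 and 4.17 RPM of RNA and 24.3, 566 and 553 RPM of DNA, and chromosome 4 by one of 2588 bp, chr4:68264219-68266806, with 0, 112 and 0 RPM of RNA and 14.9, 155 and 155 RPM of DNA. The leader of chromosome 12, chr12:38000005-38043896, held more RNA in the culture after than these, with 12.7, 522 and 20.8 RPM. The single array of chromosome 22, chr22:22489549-22494225, was higher in RNA of the culture after (12.5 RPM, 3 hits) than in the xenograft (2.78 RPM, 3 hits), at a level where both rest on a few reads.

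Counted singly, arrays that differed between the xenograft and the culture before were mostly higher in the xenograft. A difference of at least 2-fold on log2 of RPM plus 5 was counted for arrays at 20 RPM or more in either library, which takes 4 hits in RNA before. In RNA 214 arrays passed this minimum, 196 of them through the xenograft library alone, and 198 were higher and 1 was lower in the xenograft. Among all satellite loci that passed, 89.1% were higher and 1.06% lower, so the share of long arrays was near that background. Over all 804 arrays without a minimum, the counting interval of the RNA ratio lay above 1 in 158 (19.7%) and below 1 in 0. It held 1 in 628, and 18 had no hit in either library. Of all 9566 loci, 2.68% lay above and 0.0314% below, but 5099 of them had no hit in either library. Loci without hits cannot be called, so these shares, and those given the same way below, are not a like comparison. The median difference over the 804 arrays was 1.08 on the log2 scale, and over all loci 0.

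The array counted as lower was chr11:51149337-51154429. It had RNA levels of 50.9, 21.3 and 74.99 RPM and DNA levels of 40.4, 16.1 and 17.2 RPM at the 3 stages. Its RNA ratio of xenograft to culture before was 0.420 with an interval of 0.181 to 1.09, so that the difference was within counting error, while its DNA ratio of 0.398 (0.287 to 0.546) was not.

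From the xenograft to the culture after, RNA was lower at most arrays and higher at a minority. Of 243 arrays at the minimum, 180 were lower and 29 higher in the culture after, but 180 passed through the xenograft library alone and 29 through the culture after alone, so the filter itself largely sets this split. Of all loci that passed, 69.2% were lower and 18.2% higher. On the satellite-based scales the split was 202 lower and 6 higher (TMM) or 175 lower and 11 higher (size factors). Over all 804 arrays the interval lay below 1 in 189 (23.5%) and above 1 in 28 (3.48%), against 3.27% and 0.784% of all loci.

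The comparison of the cultures rests on few hits. Relative to the culture before, 52 of 69 arrays were higher and 5 lower in the culture after, where 71.7% and 7.59% of all loci that passed were. Of the 69, 51 passed the minimum through the culture after alone and 6 through the culture before alone. The counts became 28 and 11 with TMM and 27 and 11 with size factors. Over all 804 arrays the interval of this ratio lay above 1 in 24 (2.99%) and below 1 in 3 (0.373%), against 0.627% and 0.0523% of all loci. No hit in either culture was seen at 456 arrays, and at 8687 of all 9566 loci.

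The 5 arrays lower in RNA of the culture after than of the culture before included Un_gl000226, at -4.23 on the log2 scale. The others were chr11:51567243-51594205, with RNA of 44.5, 802 and 0 RPM, and chr17:22241552-22263006, with 44.5, 959 and 0 RPM, both at -3.31, and the leading arrays of chromosomes 2 and 19 named above, both at -2.00. All 5 stood between 802 and 5295 RPM in xenograft RNA, and their RNA was at 0 or a single hit in the culture after. The counting interval of the ratio lay below 1 for the first 3 named, while it held 1 for the arrays at -2.00. At the other end, the largest differences upward were 4.21 for chr8:46956280-46965978, with RNA of 0, 43.6 and 87.5 RPM, 3.92 for chr17:21773058-21777641, with RNA of 12.7, 57.5 and 262 RPM, 3.84 for chr5:46294194-46306398, with 0, 16.7 and 66.7 RPM, 3.56 for chrX:62020457-62025136, with 0, 19.5 and 54.2 RPM, and 3.46 for chr3:81016224-81018591, with 0, 14.8 and 49.99 RPM. The array chr8:43709567-43720040, also at 0 RPM before and 49.99 RPM after, tied with the last. Of these arrays, all but the one on chromosome 17 had no hit in RNA before, where a level of up to 19.1 RPM could go unseen, so the size of their differences depends on the added 5 RPM.

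Other arrays led the RNA of the culture after. The highest was chr12:38118813-38127781, with RNA of 50.9, 135 and 354 RPM and DNA of 35.6, 115 and 140 RPM. RNA of this array was highest in the culture after, at 2.61-fold the xenograft level (1.98 to 3.44) and 6.96-fold the level before (3.38 to 16.7). The array chr17:21773058-21777641 had RNA of 12.7, 57.5 and 262 RPM and DNA of 28.0, 16.1 and 19.2 RPM. Its RNA was higher in each later stage, while its DNA was lower in the xenograft than before, at a ratio of 0.575 (0.407 to 0.801).

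The next in order were similar. The array chr12:38292356-38301939 had RNA of 19.1, 83.5 and 225 RPM and DNA of 27.6, 25.1 and 30.5 RPM. Its xenograft ratio of RNA to DNA was the highest among arrays at 20 RPM or more in xenograft DNA. The array chr17:22160887-22167531 had RNA of 31.8, 44.5 and 196 RPM and DNA of 20.2, 43.0 and 62.6 RPM. The array chr11:50596753-50607172 had RNA of 38.1, 65.9 and 167 RPM and DNA of 22.3, 56.3 and 76.9 RPM. These 5 arrays were picked for their level in RNA of the culture after, so its excess over the earlier stages is a description and supports nothing further.

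In all, 63 arrays stood at 20 RPM or more in RNA of the culture after, which is 5 hits. Of these, 14 were among the 77 long arrays of chromosome 8, 9 among the 42 of chromosome 16 and 3 among the 17 of chromosome 17. A further 7 each were among the 123 of chromosome 11, the 68 of chromosome 12 and the 60 of X, against 63 of 804 in all. By their choice the 63 arrays held 72.3% of RNA of the culture after. In the libraries not used for the choice they held 41.2% of RNA before and 15.2% of xenograft RNA. They also held 27.9% of DNA before and 14.7% of xenograft DNA. Their RNA per DNA before grafting was 0.678 (0.569 to 0.801), against 0.373 (0.323 to 0.429) in the other 741 arrays, and in the xenograft 0.821 (0.801 to 0.841) against 0.786 (0.778 to 0.794). The intervals of the 2 sets did not overlap at either stage, although the gap was small in the xenograft. The DNA ratio of xenograft to culture before was 7.27 in the 63 arrays, against 16.3 in the other arrays. The array chrX:58544096-58582011 alone gave 4598 of the 8505 xenograft RNA hits and 18561 of the 31068 xenograft DNA hits of the 63. Summed xenograft values of this set, and the DNA ratio, therefore rest largely on that array.

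In DNA, 238 arrays passed the minimum between xenograft and culture before, and 213 were higher and 3 lower in the xenograft, where 89.6% and 2.03% of all loci that passed were. Of the 238, 188 passed through xenograft DNA alone. With satellite-based scales the split was near even, at 62 higher and 64 lower with TMM and 50 and 67 with size factors. Over all 804 arrays the interval of the DNA ratio lay above 1 in 652 (81.1%) and below 1 in 9 (1.12%), against 31.2% and 0.45% of all loci. The highest ratios on the log2 scale were 4.99 for the array starting at 61682015 on X, 4.99 for the one starting at 22241552 on chromosome 17 and 4.84 for the one starting at 51567243 on chromosome 11.

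The 3 arrays lower in xenograft DNA were chr16:35149247-35154405, with DNA of 70.5, 22.9 and 23.05 RPM, chr8:46913870-46922182, with 31.9, 12.7 and 17.9 RPM, and the array of chromosome 11 described above. For the array on chromosome 16 the DNA ratio was 0.325 (0.249 to 0.420), while its RNA was 12.7, 33.4 and 117 RPM. RNA of all 3 arrays was higher in the culture after than in the xenograft. Their DNA in the culture after was close to that of the xenograft.

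Between the xenograft and the culture after, DNA of the arrays hardly differed. None of 253 arrays at the minimum differed by 2-fold, and of all loci that passed 0% did in either direction. The largest difference upward was 0.83 and the largest downward -0.48 on the log2 scale. By counting intervals over all 804 arrays 88 (10.9%) were higher and 7 (0.871%) lower in the culture after, against 1.68% and 1.23% of all loci. Relative to the culture before, 236 of 253 arrays were higher and 2 lower in DNA of the culture after, where 92.2% and 1.74% of all loci that passed were. Of the 253, 203 passed through the culture after alone. The split came to 88 and 58 with TMM and 79 and 62 with size factors. The interval lay above 1 in 680 of the 804 (84.6%) and below 1 in 9 (1.12%), against 29.9% and 0.46% of all loci.

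Levels per length differed widely between chromosomes. In xenograft RNA the summed arrays stood highest on the contig Un_gl000226 at 353 RPM per kb, then on chromosome 2 at 41.6, on chromosome 1 at 30.1, on 18 at 26.7 and on X at 16.7 RPM per kb. The lowest chromosomes were 22, with a single array, at 0.595 RPM per kb and Y at 2.11 RPM per kb, and there was no long array on chromosome 13. In RNA of the culture after the order was another one. Chromosome 17 at 4.34 RPM per kb and chromosome 16 at 2.37 stood above chromosome 1 at 0.521 and chromosome 2 at 0.101 RPM per kb. The array of chromosome 22 stood at 2.67 RPM per kb on 3 hits (12.5 RPM, interval 2.58 to 36.5), so its rank is uncertain.

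Summed by chromosome, the arrays were higher in xenograft RNA than before on nearly all units. Among 27 chromosomes and contigs, the interval of the RNA ratio lay above 1 in 25, and that of the culture after to the xenograft lay below 1 in 25. Among units with a hit in RNA before, the highest ratios of xenograft to culture before were 150 on chromosome 18 (26.8 to 5915) and 108 on chromosome 2 (46.4 to 334), and X stood at 38.4 (28.1 to 54.0). The contig 9_gl000199_random, with 0 hits before, was at least 73.6-fold higher in the xenograft. The lowest were 6.15 on Y (3.09 to 14.4), 8.46 on chromosome 12 (6.17 to 11.9) and 9.98 on chromosome 17 (6.29 to 16.9). Chromosomes 2 and X were above 12 and 17 with no overlap of intervals, while the 3 lowest overlapped each other, and so did 18 and 2.

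RNA of the culture after separated the chromosomes more widely. It was 414-fold below the xenograft on chromosome 2 (114 to 3416), 57.7-fold on chromosome 1 (30.3 to 126), and only 1.83-fold on Y (1.32 to 2.60), 2.18-fold on chromosome 17 (1.81 to 2.64), 2.32-fold on chromosome 12 (2.02 to 2.68) and 2.34-fold on chromosome 16 (2.00 to 2.74). The last 4 did not differ beyond their intervals. On chromosome 17 the arrays starting at 21773058 and 22160887 gave 63 and 47 of the 126 hits in the culture after. On chromosome 12 those starting at 38118813 and 38292356 gave 85 and 54 of 217. On Y those starting at 19786472 and 20383384, of equal length, gave 15 each of 41. Ratios of the culture after on 17, 12 and Y therefore rest largely on few arrays. Against the culture before, RNA of the culture after had an interval above 1 on 11 units, among them chromosome 16 at 4.89 (3.18 to 7.83), 17 at 4.59 (2.79 to 7.99), 12 at 3.65 (2.58 to 5.27) and 8 at 3.10 (2.25 to 4.34), and below 1 on the contig Un_gl000226. Chromosome 12 held 4.05% of xenograft RNA on long arrays and 16.2% of RNA in the culture after, chromosome 16 held 3.36% and 13.3%, and X held 18.4% and 9.01%.

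**Figure D3:**
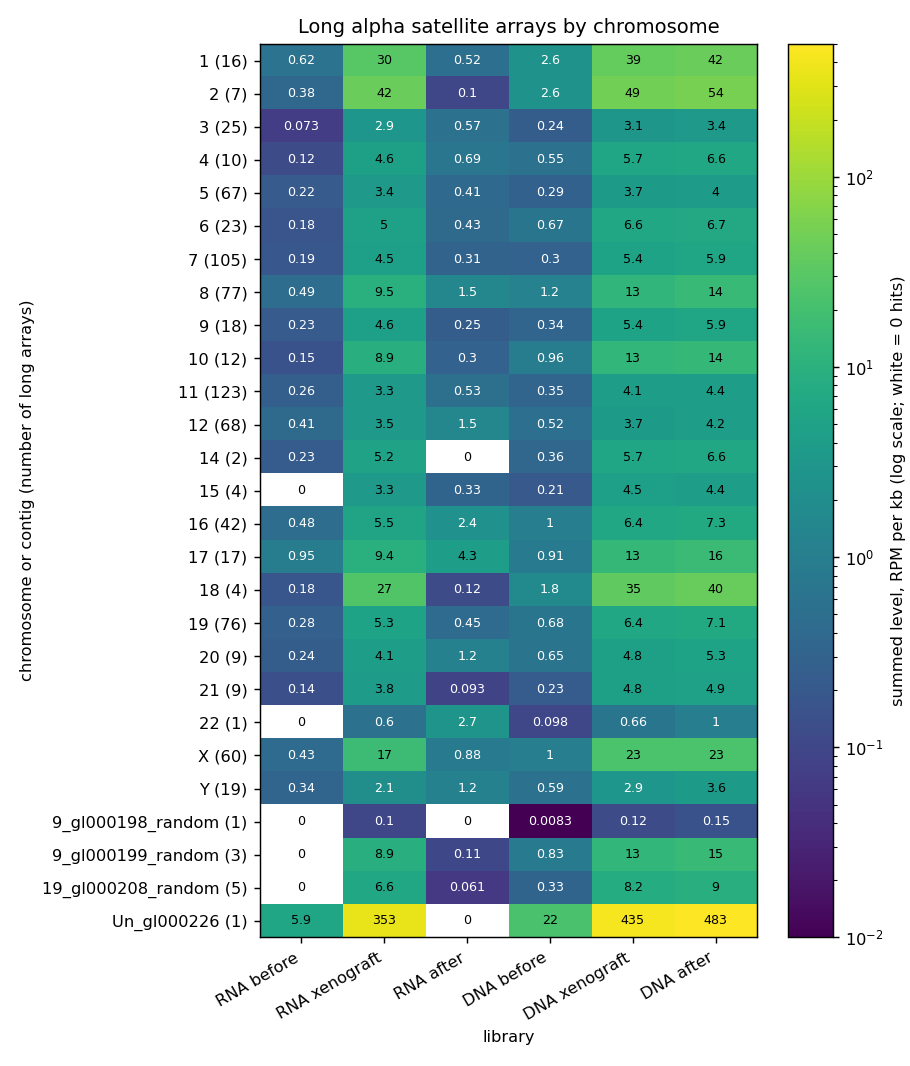
Summed level of the long arrays on each chromosome and contig in the 6 libraries, as RPM per kb on a log colour scale, with white for 0 hits and the number of arrays in brackets. Xenograft RNA and both later DNA libraries are high on most units, but not on the contig 9_gl000198_random or chromosome 22, each with a single array. RNA of the culture after is low on chromosomes such as 2 and 1 and closer to the xenograft level on Y, 12, 16 and 17.

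In DNA every unit was above the culture before in the xenograft in RPM, with intervals above 1 on 27 of 27. The contig 19_gl000208_random stood at 24.5 and X at 22.6 (21.7 to 23.6), against 4.93 on Y (4.40 to 5.53), 6.22 on chromosome 16 (5.87 to 6.60), 7.16 on chromosome 12 (6.75 to 7.60) and 7.37 on chromosome 20. In both satellite-based scales chromosomes 12, 16, 20, 22 and Y turned to ratios below 1, at 0.601 (TMM) on Y and 0.759 on chromosome 16, so their direction in DNA depends on the scale. RNA per DNA in the xenograft ranged from 0.684 on chromosome 10 to 0.949 on chromosome 12 over the 25 units with at least 50 DNA hits, with a median of 0.811. In the culture after it ranged from 0 to 0.363 on chromosome 12, with 0.325 on chromosome 16, 0.320 on Y and 0.277 on 17, and a median of 0.0628.

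The position of an array along its chromosome went with its level. On 10 chromosomes (3, 5, 6, 8, 11, 12, 18, 19, X and Y) the table has a stretch of 2.9 to 3.2 Mb without any satellite locus and with a long array on each side, and 542 of the 804 arrays lie on these chromosomes. This grouping was made after the levels had been seen, and its values are descriptions. The 20 arrays that border the stretch had 48.2 RPM per kb in xenograft RNA, against 4.30 in the 103 arrays within 100 kb of it, 1.78 in the 329 arrays at 100 to 500 kb and 2.896 in the 90 arrays beyond 500 kb. The gap was smaller by the median array, at 9.14, 2.64, 1.06 and 1.10 RPM per kb, and the bordering arrays ranged from 1.11 to 171 RPM per kb. Xenograft DNA followed the same order in sum at 66.2, 4.88, 1.97 and 3.18 RPM per kb. The bordering arrays held 63.8% of xenograft RNA and 68.4% of xenograft DNA of these chromosomes, and led xenograft RNA on 7 of the 10.

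In RNA of the culture after the summed level per kb was lowest at the border. The bordering arrays stood at 0.247 RPM per kb, and the others at 0.527, 0.994 and 0.993 RPM per kb with distance. The median array stood at 0 RPM per kb in each of the 4 groups, so these sums rest on the minority of arrays with hits, up to 1.65 RPM per kb at the border and up to 39.5 RPM per kb at 100 to 500 kb. RNA per DNA there was 0.00355 at the border (0.00223 to 0.00538), 0.0987 within 100 kb, 0.439 at 100 to 500 kb and 0.282 beyond. In the culture before it was 0.193 at the border (0.134 to 0.270) and 0.793 at 100 to 500 kb (0.658 to 0.949), and in the xenograft 0.729 (0.717 to 0.740) and 0.906. Bordering arrays were therefore lowest in RNA per DNA at all 3 stages, by a small margin in the xenograft and a wide margin in the culture after.

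**Figure D4:**
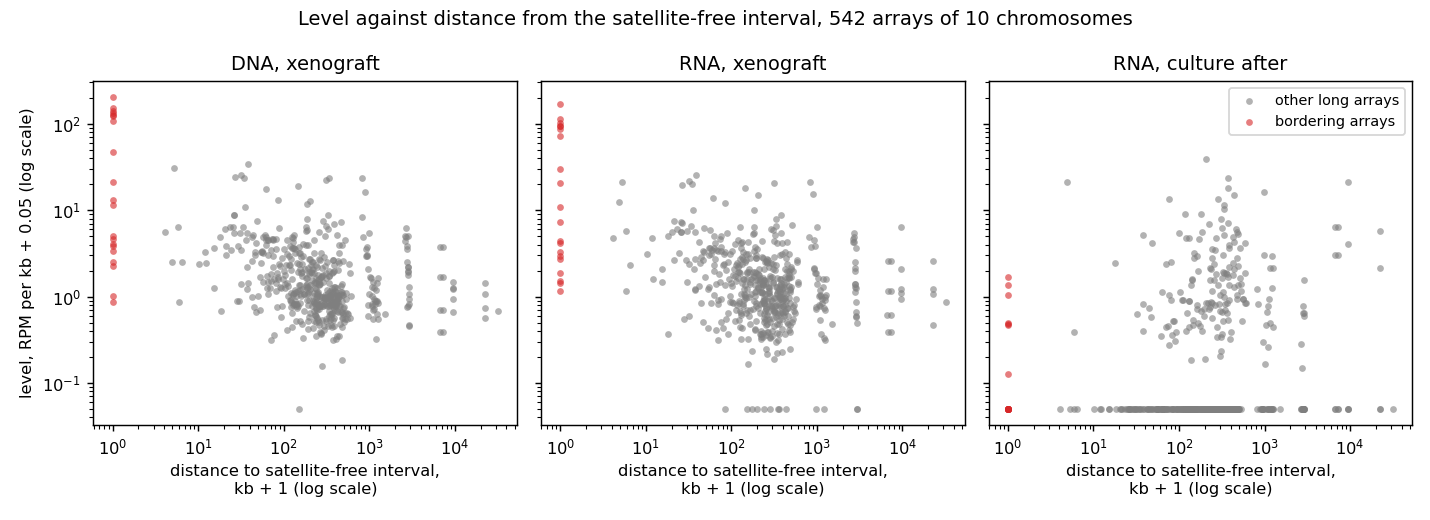
Level of each long array on 10 chromosomes against its distance from the satellite-free interval, for xenograft DNA, xenograft RNA and RNA of the culture after. Axes are log, as kb plus 1 and RPM per kb plus 0.05, and the 20 bordering arrays are red. Arrays at the border reach up to 171 RPM per kb in xenograft RNA, while in RNA of the culture after they reach 1.65 RPM per kb, against up to 39.5 RPM per kb at 100 to 500 kb.

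The stages differed accordingly. RNA at the border was 82.7-fold higher in the xenograft than before (59.2 to 119), against 5.53-fold at 100 to 500 kb. In the culture after it was 195-fold below the xenograft at the border (129 to 311) and 1.79-fold at 100 to 500 kb. Relative to the culture before it was at a ratio of 0.424 at the border (0.236 to 0.746), 2.49 within 100 kb (1.64 to 3.88) and 3.09 at 100 to 500 kb. In RPM the bordering arrays were thus below their level before grafting and the groups farther out were above it. Within 100 kb the satellite-based scales gave 1.38 (TMM, 0.910 to 2.16) and 1.31 (size factors, 0.862 to 2.04), with intervals that held 1. They gave 1.71 and 1.62 at 100 to 500 kb, and 1.65 and 1.56 beyond. Without the X array with most RNA hits before, chrX:58544096-58582011, the border ratios were 113 for xenograft to culture before and 0.241 for culture after to before (0.0858 to 0.600), and RNA of the culture after was 467-fold below the xenograft in place of 195-fold. DNA at the border was 21.9-fold higher in the xenograft than before, against 4.85-fold at 100 to 500 kb and 7.43-fold beyond. With TMM these ratios were 2.68, 0.591 and 0.906, and with size factors 2.46, 0.544 and 0.835. Their size therefore depends on the scale, and beyond 100 kb so does their direction.

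Summed level per kb also differed with length. Per kb, xenograft RNA was 2.54 RPM in the 343 arrays of 2 to 5 kb, 4.90 in the 246 of 5 to 10 kb, 7.31 in the 158 of 10 to 20 kb, 12.8 in the 50 of 20 to 50 kb and 12.3 in the 7 longer arrays. RNA of the culture after was 1.10, 1.57, 0.481, 0.360 and 0.116 RPM per kb in the same bins, lower in the long bins. RNA per DNA in the culture after was 0.340 in the shortest bin and 0.00641 in the longest. In xenograft RNA the bin sums rest in part on few arrays. Un_gl000226 gave 5295 of 15833 RPM at 10 to 20 kb, and the array on X starting at 58544096 gave 4266 of 17914 RPM at 20 to 50 kb. The one on X starting at 61682015 gave most of the 6674 RPM in the longest bin. Both X arrays border the satellite-free stretch, so length and position were not separated here. By strand of annotation, arrays on the plus strand had 9.001 RPM per kb in xenograft RNA and those on the minus strand 5.66, and xenograft DNA had 11.3 and 7.27, so both differed alike.

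Near-identical copies limit what can be assigned to an array. Of the 804 arrays, 10 formed 5 pairs with the same value in all 6 libraries, among them a pair on Y starting at 19808086 and 20368928 and a pair shared between chromosome 16 and chromosome 19. A further pair on Y, starting at 19786472 and 20383384, was of equal length (9925 bp). Its hits were equal in all libraries but DNA of the culture after, at 162 and 163. A read with several matches may therefore be counted at more than 1 array, and values of single arrays are uncertain to that extent.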

How the data were processed

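RNA and DNA of 3 stages of SW620 were measured in 6 libraries. The authors deposited 1 table in RPM per satellite locus, on hg19 per the submitters' processing notes. Not given in the sources used here are the aligner, the strand rule and how reads from mouse or with several matches were treated. In each library 100% of nonzero RPM values were whole multiples of the smallest within 0.01 reads, so whole reads were recovered, with the library total taken from that unit.

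Groups were taken from the sample titles. Arrays were selected by family and a minimum of 2000 bp, and both members and lists were chosen with earlier results of these data known. Levels were compared as ratios of summed hits with exact conditional binomial (Clopper-Pearson) 95% intervals, and single libraries with exact Poisson intervals. Counts used a 20 RPM minimum and a 2-fold difference on log2(RPM + 5). A fold against 0 hits was computed against 3 reads in that library. The intervals treat hits as independent, although a read may be counted at several loci. Named arrays are the longest, the highest in each library, the highest and lowest in each comparison and in RNA per DNA, the leader of each chromosome and those at the length limit. Alternatives were TMM (edgeR 4.0.16) and size factors (DESeq2 1.42.0) over satellite loci on the recovered reads, totals without satellite hits, other length, RPM and pseudocount settings, and an exact binomial test with Benjamini-Hochberg adjustment, which compares libraries and not conditions. The scripts were tested on simulated data. Python 3.11.15, NumPy 2.4.6, pandas 2.3.3, SciPy 1.17.1, matplotlib 3.10.9 and R 4.3.3 were used. Sequences of the arrays were not used here.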

Additional observations from a re-analysis of the deposited data

How the results depend on the processing

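No paired analysis was possible because each group holds 1 library, and for the same reason no library could be left out. Depth limits RNA of the culture before most, with 342 hits on all long arrays. Of the alternatives to the summed levels, ratios and counts of arrays, 100 kept their value within counting error or within 1.5 times and 71 moved; for named arrays 164 kept it, 28 moved and 0 changed direction. The cause of the moves was not tested.

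Values are ratios of summed levels, TMM before size factors. RNA xenograft over before became 21.1 and 16.7, and 21.4 on assembled chromosomes. RNA after over xenograft, 0.108 in the report's scale, became 0.0676 and 0.0809, 0.101 with totals without satellite hits, 0.0886 from 5000 bp, 0.120 without the leading array and 0.125 on assembled chromosomes. RNA after over before became 1.43 and 1.35. DNA xenograft over before became 1.68 and 1.55, then 15.2, 14.7, 13.4 and 13.2 under those other 4 settings. DNA after over xenograft became 1.14 and 1.14. DNA after over before became 1.92 and 1.77, then 16.6, 16.02, 14.5 and 14.3. RNA per DNA became 0.769 in the xenograft and 0.0712 in the culture after with totals without satellite hits, and in the culture after 0.0641 from 5000 bp and 0.0873 without the leading array.

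Counts of arrays moved as follows, in the order TMM, size factors, no minimum and 50 RPM where no setting is named. RNA xenograft over before had 431 higher without a minimum and 105 at 50 RPM, and 2 lower with TMM, 2 with size factors, 5 without a minimum and 0 by the exact test. RNA after over xenograft had 6, 11 and, at 50 RPM, 19 higher, and 374 lower without a minimum and 101 at 50 RPM. RNA after over before had 28, 27, 115 without a minimum, 21 at 50 RPM and 21 by the exact test higher, and 11, 11, 76, 1 and 3 lower. DNA xenograft over before had 62, 50, 421 and 116 higher, and 64, 67, 5, 1 and, by the exact test, 6 lower. DNA after over xenograft had 50 higher and 1 lower by the exact test. DNA after over before had 88, 79, 456 and 134 higher, and 58, 62, 1 with totals without satellite hits, 4, 1 at 50 RPM and 6 by the exact test lower.

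Direction turned below 1 for RNA after over before on chromosome 5 (0.977, size factors) and 7 (0.922 and 0.873). It did so for DNA xenograft over before on 12 (0.873 and 0.804), 16 (0.759 and 0.699), 20 (0.898 and 0.827), 22 (0.822 and 0.757) and Y (0.601 and 0.554), at 100 to 500 kb from the satellite-free stretch (0.591 and 0.544) and beyond 500 kb (0.906 and 0.835). For DNA after over before it did so on 12 (0.948, size factors), 16 (0.909 and 0.839), 20 (0.973, size factors) and Y (0.773 and 0.713), at 100 to 500 kb (0.711 and 0.657) and beyond (0.967, size factors). The alternatives by position were chosen after seeing the data.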
